A study of Rattus norvegicus with 18 samples.

Results

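A set of 10 genes of mitochondrial fatty acid beta-oxidation was followed in rat liver: Cpt1a (ENSRNOG00000014254), Cpt2 (ENSRNOG00000012443), Acadvl (ENSRNOG00000018114), Acadl (ENSRNOG00000012966), Acadm (ENSRNOG00000009845), Hadha (ENSRNOG00000024629), Hadhb (ENSRNOG00000010800), Eci1 (ENSRNOG00000008843), Eci2 (ENSRNOG00000029549) and Etfdh (ENSRNOG00000009538). They were taken by symbol from the 32623 genes of each table, and all 10 were among the 12904 genes that passed the filter on low counts. Liver RNA came from male Wistar rats in 3 groups of 6, with 1 library per rat. Control rats had standard chow and normal water for 12 weeks. NASH rats (non-alcoholic steatohepatitis) breathed CCl4, which injures the liver, over 6 weeks while drinking phenobarbital in their water. For the following 4 weeks they ate HFCD, a diet rich in fat and cholesterol. In NASH-CH rats (NASH with cirrhosis) the same toxin and drug were given throughout, alone at first (8 weeks) and then alongside HFCD (16 weeks). The models thus differ from each other in both the length of exposure and its order, and neither matches the control group in duration (10, 24 and 12 weeks in all), so these factors cannot be told apart. The sample labels give only 10 or 24 weeks of CCl4 with the diet.

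Beta-oxidation shortens fatty acids inside mitochondria by 1 acetyl-CoA unit per round, and in the liver it feeds the citric acid cycle and ketone body synthesis. Long-chain fatty acids enter as carnitine esters: CPT1A forms them at the outer membrane, and CPT2 turns them back into acyl-CoA at the inner membrane. Acyl-CoA dehydrogenases for very long (Acadvl), long (Acadl) and medium (Acadm) chains take the first step of each round. The next steps for long chains are carried out by the trifunctional protein, whose alpha and beta subunits are encoded by Hadha and Hadhb. Eci1 and Eci2 encode enoyl-CoA isomerases, which move the double bonds of unsaturated fatty acids so that they can be oxidized. Etfdh encodes the dehydrogenase that passes the electrons of the dehydrogenases to ubiquinone. Many of these genes are known targets of the nuclear receptor PPAR alpha, which is activated by fatty acids.

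Promoter stretches of the genes to which the results below return are shown first, because Hadha and Hadhb start close together on opposite strands and because Cpt1a, Eci1 and Eci2 behaved differently from each other. RefSeq promoter windows were found by symbol for 9 of the 10 genes, all but Acadl. Their coordinates are those of GRCr8, whereas the counts were made on Rnor_6.0. Each window has 250 bases before the start and 50 after it. The 250 bases before the start are given for 3 genes, with the 200 bases that lie upstream of both Hadhb and Hadha. Capitals mark AGGTCA (the half-site of nuclear receptors), GGGCGG (GC box) or CCAAT, on either strand.
Cpt1a, chr1:209995910-209996159, plus strand: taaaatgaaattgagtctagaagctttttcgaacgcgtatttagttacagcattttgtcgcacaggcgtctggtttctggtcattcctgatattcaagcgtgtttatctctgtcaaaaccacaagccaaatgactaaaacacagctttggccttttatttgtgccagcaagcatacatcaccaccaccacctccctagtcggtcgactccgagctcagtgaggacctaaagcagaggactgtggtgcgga
Eci1, chr10:13961000-13961249, plus strand: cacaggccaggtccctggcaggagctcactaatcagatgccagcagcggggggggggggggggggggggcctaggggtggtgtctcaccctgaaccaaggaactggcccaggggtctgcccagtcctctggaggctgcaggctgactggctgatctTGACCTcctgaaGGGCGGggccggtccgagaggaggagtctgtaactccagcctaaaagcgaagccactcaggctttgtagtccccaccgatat
Eci2, chr17:30075516-30075765, plus strand: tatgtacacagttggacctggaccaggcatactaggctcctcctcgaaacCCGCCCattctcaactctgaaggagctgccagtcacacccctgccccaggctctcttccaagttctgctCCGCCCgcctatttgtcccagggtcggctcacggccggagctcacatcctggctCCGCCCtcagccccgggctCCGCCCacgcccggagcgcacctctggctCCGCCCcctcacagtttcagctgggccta
Hadhb-Hadha, chr6:31907551-31907750, plus strand (Hadha reads rightwards, Hadhb leftwards): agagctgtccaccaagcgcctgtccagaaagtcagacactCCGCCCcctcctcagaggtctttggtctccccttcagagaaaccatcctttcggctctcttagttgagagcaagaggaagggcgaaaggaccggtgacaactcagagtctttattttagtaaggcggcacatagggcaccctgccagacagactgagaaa
Over the whole windows of 300 bases, AGGTCA was found in 4 of the 9 genes (Acadvl, Hadhb, Eci1 and Eci2) and in 16.2% of all 33469 promoter windows. GGGCGG was found in 7 of 9 against 33.1% of all windows, and CCAAT in 1 of 9, Hadha, against 37.5%. The Cpt1a window held none of the 3. Its GC content was 48.3%, the lowest of the 9, beside 51.7% for the median window. All others of the 9 were above that median, from 54.3% (Hadha) to 66.7% (Cpt2). The part of GC content in the motif counts was not tested. The GC box of Hadha lies in the stretch shared with Hadhb, so that site was counted for both genes. These matches describe letters in a short window and are not evidence of binding.

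Total counts per rat ran from 19498516 to 27174006 in control, from 20827733 to 29491895 in NASH and from 44680345 to 60117806 in NASH-CH rats. The NASH-CH libraries were thus deeper than every other library. Each of the 10 genes had at least 724 counts in every rat, so counting error is small beside the spread between rats. Values below are CPM, the counts of a gene relative to the TMM-scaled total of the library, and tests are limma-voom fits of all 18 rats with adjustment over all genes tested. CPM is not corrected for gene length, so levels were compared between rats and not between genes. The tissue carried its label: hepatocyte markers such as Alb summed to between 90958 and 195440 CPM in every rat, while 7 skeletal and heart muscle markers summed to at most 1.74 CPM. In whole tissue, fewer hepatocytes and less RNA per hepatocyte cannot be told apart.

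**Figure D1:**
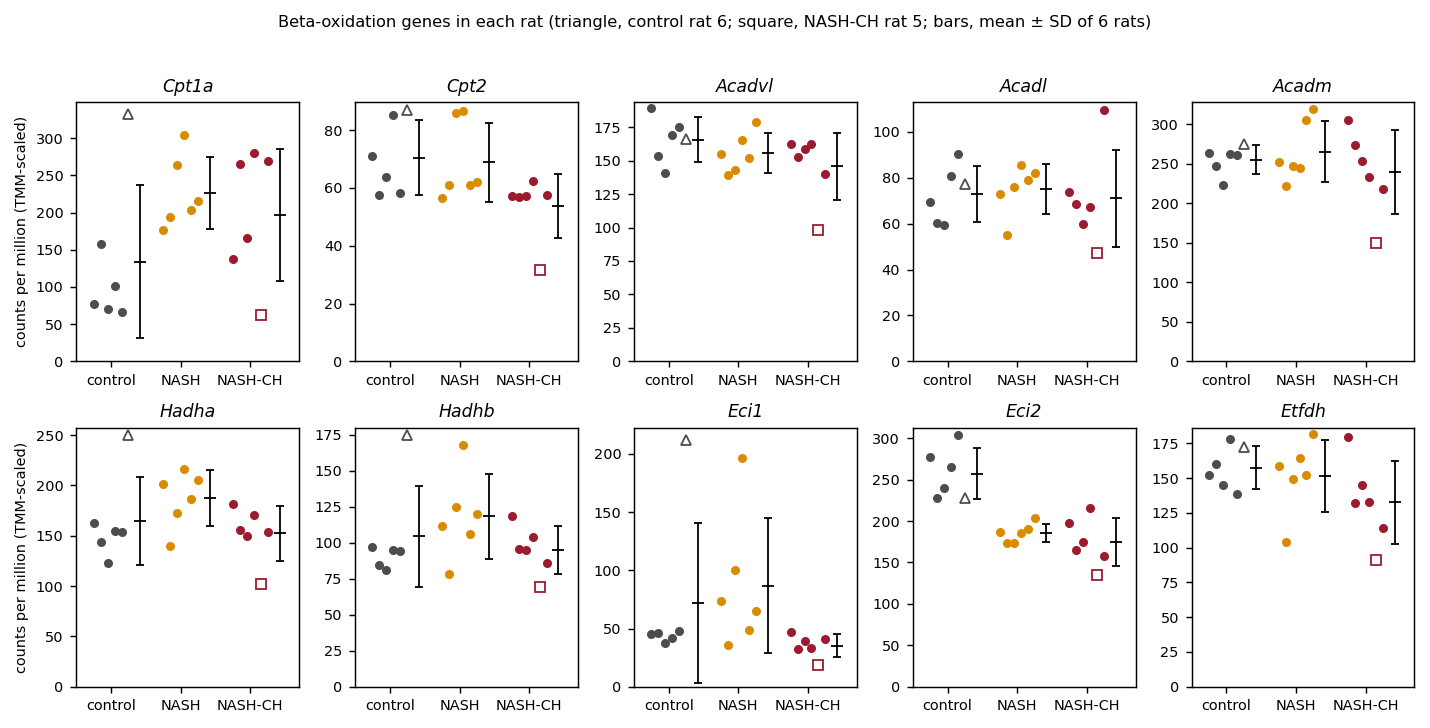
Expression of the 10 genes in each of 18 rats, as TMM-scaled CPM on a linear axis from 0, with the mean and SD of 6 rats beside each group. Every NASH and NASH-CH rat lies below every control rat for Eci2, while for Cpt1a and Eci1 control rat 6 (triangle) lies far above the other 5 control rats and NASH-CH rat 5 (square) is the lowest of its group in every panel.

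Most of the 10 genes did not pass the test in any comparison, and Eci2 was the exception, being lower in both models. In NASH against control, 1 of 10 genes passed the adjusted threshold of 0.05, beside 3.12% of all genes tested. In NASH-CH against control, 1 of 10 passed, again Eci2, beside 17.0% of all genes. In NASH-CH against NASH, 0 of 10 passed, beside 4.20% of all genes; 2 genes, Cpt2 and Eci1, had an unadjusted p under 0.05. The edgeR and DESeq2 tests also called Eci2 alone in the comparisons with control and none of the 10 between the models. Both comparisons with control share the same 6 control rats.

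Eci2 stood at 227, 228, 241, 265, 277 and 304 CPM in the control rats. In NASH rats it ran from 173 to 203 CPM with a median of 187. In NASH-CH rats it ran from 135 to 216 CPM with a median of 170. On this TMM-scaled measure all 12 rats of the models therefore lay below all 6 controls, and the NASH and NASH-CH ranges overlapped. Eci2 was the only 1 of the 10 genes whose groups did not overlap, which held for 3.16% of all genes in NASH and for 7.11% in NASH-CH against control. Between the models it held for 0 of 10, beside 3.47% of all genes. Relative to library totals alone, both models overlapped with control for Eci2. Control rat 3 then lay below some rats of both models, with 4765 of 23468061 counts. NASH rat 4 had 4437 of 20827733 counts and NASH-CH rat 4 had 9893 of 45259036. Mean Eci2 was 257 ± 30.6 CPM in control (SD, n = 6), 186 ± 11.2 in NASH and 174 ± 29.1 in NASH-CH. The log2 fold change was -0.47 in NASH (SE 0.107, adjusted p = 0.0258) and -0.57 in NASH-CH (SE 0.111, adjusted p = 0.00208), which is a fall of 27.8% and 32.6%. Between the models it was -0.10 (SE 0.110, adjusted p = 0.703). The NASH-CH call held in each of the 18 fits that left out 1 rat, with adjusted p from 0.000858 to 0.00593. With NASH-CH counts thinned to the depth of the other rats, it was at -0.58 in NASH-CH (adjusted p = 0.00190). The NASH call was lost in 5 of those 18 fits, without control rat 1, 4 or 5 or NASH rat 3 or 5, where adjusted p reached 0.0696. It was also lost when libraries were scaled by their totals alone (log2 fold change -0.24, adjusted p = 0.0937), a scaling that put the median of all genes at 0.229. Relative to that median Eci2 was at -0.47, which nearly repeats the TMM scaling and adds no separate evidence. RefSeq also lists the related gene Eci3 and a pseudogene of Eci2, and reads that matched several of them could have been divided, so the level of Eci2 is uncertain to that extent.

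Markers of several cell types and the make-up of the libraries differed between the same groups. Of 14 hepatocyte markers, 1 was lower in NASH (Apoa1), and in NASH-CH 3 were lower (Alb, Ttr and Apoa1) and 1 higher (Hpx). The summed level of the list was 131827 to 195440 CPM in control, 93663 to 157099 in NASH and 90958 to 147891 in NASH-CH rats. Of 9 macrophage markers, 1 was lower in NASH (Marco), and in NASH-CH 6 were lower (Cd163, Clec4f, Marco, Csf1r, Cd5l and Vsig4) and 1 higher (Lyz2). Their sum was 279 to 505 CPM in control, 198 to 295 in NASH and 183 to 288 in NASH-CH rats. Of 11 markers of stellate cells and myofibroblasts, 1 was lower in NASH (Lrat), and in NASH-CH 3 were higher (Col1a1, Des and Tagln) and 2 lower, Lrat among them, with sums of 379 to 489, 301 to 406 and 369 to 529 CPM. In the other marker lists 0 passed in NASH. In NASH-CH 0 of 5 cholangiocyte and 0 of 5 lymphocyte markers tested passed. There 1 of 8 endothelial and 1 of 2 adipocyte markers were higher, and the 1 muscle marker tested was lower. Beside these marker counts, 3.12% of all genes tested passed in NASH and 17.0% in NASH-CH against control. None of the hepatocyte, macrophage or stellate cell and myofibroblast markers was at 0 in any rat. Small non-coding RNA took 16.1% to 22.3% of the counts in control, 14.7% to 17.3% in NASH and 11.1% to 13.1% in NASH-CH rats, and the group means differed from control with p = 0.0238 and 0.00216 in 2-sided exact permutation tests. The TMM factor averaged 0.898, 1.05 and 1.08. The part of these measures in the fall of Eci2 was not tested.

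Neither carnitine transferase gene passed the test, and the outcome for Cpt1a turned on 1 control rat. Cpt1a, the gate of mitochondrial uptake, was read at 66.1, 70.3, 77.1, 101, 158 and 333 CPM in the control rats. In NASH rats it ran from 176 to 305 CPM with a median of 209, and in NASH-CH rats from 63.0 to 280 with a median of 215. All 6 NASH rats and 4 of the 6 NASH-CH rats were above 5 control rats, but all were below control rat 6. The log2 fold change was 1.02 in NASH (SE 0.374, adjusted p = 0.125) and 0.70 in NASH-CH (SE 0.385, adjusted p = 0.222), so neither difference passed the test. Without control rat 6 the values were 1.32 (adjusted p = 0.0162) and 1.00 (adjusted p = 0.0334), and both passed. Weights for sample quality gave 1.09 (adjusted p = 0.0231) and 1.02 (adjusted p = 0.0357). Between the models the log2 fold change was -0.32 (95% interval -1.17 to 0.52). The muscle form Cpt1b had at most 1.83 CPM in any rat and did not pass in any comparison.

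**Figure D2:**
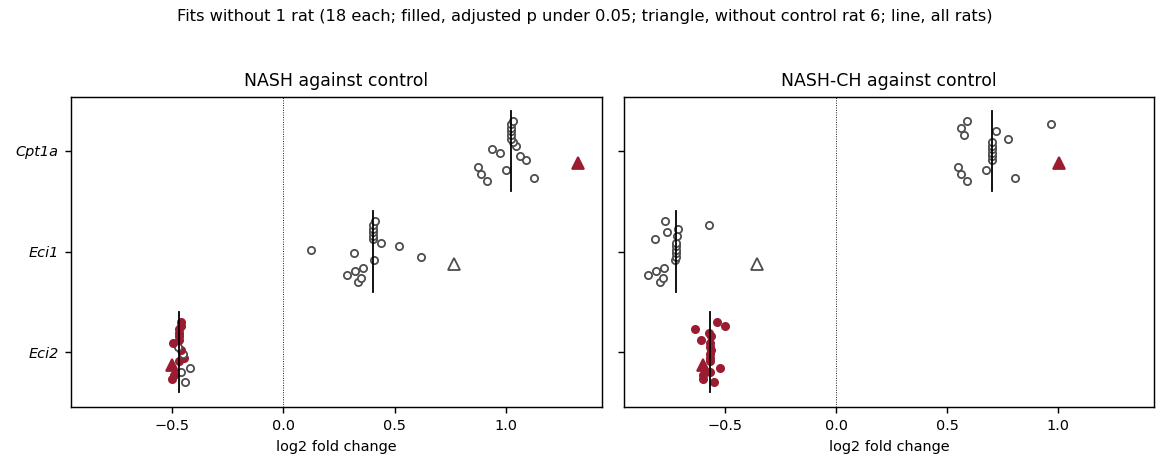
Log2 fold change against control of Cpt1a, Eci1 and Eci2 in 18 fits that each left out 1 rat; the vertical line is the value with all rats, and filled symbols have an adjusted p under 0.05. The fit without control rat 6 (triangle) is the only one of the 18 in which Cpt1a passes, at 1.32 in NASH and 1.00 in NASH-CH, while Eci2 stays below 0 in all of them.

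Cpt2 was read at 57.4 to 86.8 CPM in control rats with a median of 67.4. NASH rats ran from 56.5 to 86.7 with a median of 61.5, and NASH-CH rats from 31.5 to 62.4 with a median of 57.2. All 6 NASH-CH rats were below the control mean. Of them, 4 were below every control rat, at 57.3, 57.1, 57.0 and 31.5 CPM beside a lowest control value of 57.4. Its log2 fold change was -0.03 in NASH (SE 0.160) and -0.39 in NASH-CH (SE 0.165, adjusted p = 0.115), which did not pass. Slc25a20, the carnitine carrier between the 2 transferases, was at -0.05 on the log2 scale in NASH (adjusted p = 0.845). In NASH-CH it was at -0.37 (adjusted p = 0.0591). The latter passed in 6 of 31 alternative fits.

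The 3 acyl-CoA dehydrogenases did not pass the test in any comparison. For Acadvl the control rats ran from 140 to 189 CPM (median 168), NASH rats from 139 to 179 (median 153) and NASH-CH rats from 98.1 to 163 (median 156). Its log2 fold change was -0.09 in NASH (95% interval -0.33 to 0.14) and -0.19 in NASH-CH (95% interval -0.44 to 0.05). RefSeq lists a pseudogene of Acadvl, which could share its reads. For Acadl the ranges were 59.4 to 90.4, 55.1 to 85.7 and 47.3 to 110 CPM, with medians of 73.3, 77.5 and 67.8. The intervals of its log2 fold change were -0.29 to 0.37 in NASH and -0.40 to 0.28 in NASH-CH. For Acadm, which handles medium chains, the ranges were 223 to 274, 222 to 319 and 150 to 305 CPM, with medians of 261, 250 and 243, and the intervals were -0.24 to 0.32 and -0.41 to 0.17. Acadm had the smallest spread of the 10 genes among control rats, with a coefficient of variation of 7.03%. Groups overlapped for all 3 dehydrogenases. The short-chain gene Acads was at -0.16 (adjusted p = 0.476) in NASH and -0.30 (adjusted p = 0.102) in NASH-CH.

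Hadha and Hadhb followed each other from rat to rat. In control rats Hadha ran from 123 to 250 CPM with a median of 154, in NASH rats from 139 to 217 with a median of 194, and in NASH-CH rats from 102 to 182 with a median of 155. Hadhb ran from 81.1 to 174 CPM (median 94.5), from 78.4 to 168 (median 116) and from 68.9 to 118 (median 95.3). Control rat 6 had the highest value of both genes among the controls, and NASH-CH rat 5 the lowest of its group. The log2 fold changes in NASH were 0.21 for Hadha (SE 0.158, adjusted p = 0.466) and 0.20 for Hadhb (SE 0.184, adjusted p = 0.568). In NASH-CH they were -0.08 (SE 0.163, adjusted p = 0.767) and -0.09 (SE 0.191, adjusted p = 0.772). Within groups the Pearson correlation of their log2 CPM was 0.913 over 18 rats, which share libraries and their scaling. The difference of Hadha minus Hadhb on the log2 CPM scale averaged 0.67 ± 0.09 in control (SD, n = 6), 0.68 ± 0.21 in NASH and 0.68 ± 0.09 in NASH-CH rats. The smallest differences were those of NASH rat 4 (0.37), NASH rat 3 (0.47) and control rat 6 (0.52), and those 3 rats also had the highest values of Hadhb and of Eci1. The shared upstream stretch printed above is the one between these 2 genes, whose starts lie 300 bases apart in the RefSeq table. Hadh, which encodes a hydroxyacyl-CoA dehydrogenase for shorter chains, was at 0.21 in NASH (adjusted p = 0.463). Its value in NASH-CH was -0.09 (adjusted p = 0.724).

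Eci1 and Eci2 both encode isomerases, yet their values ran differently. Eci1 was between 38.0 and 48.3 CPM in 5 control rats and at 212 CPM in control rat 6. In NASH rats it ran from 35.9 to 197 with a median of 69.6, and 2 rats, numbers 3 and 4, were above 100 CPM. In NASH-CH rats it ran from 18.6 to 46.6 with a median of 36.0. The coefficient of variation was 95.5% in control and 66.9% in NASH rats, the largest among the 10 genes in both groups. The log2 fold change was 0.40 in NASH (SE 0.406, adjusted p = 0.607) and -0.72 in NASH-CH (SE 0.405, adjusted p = 0.233). Between the models it was -1.13 (SE 0.413, adjusted p = 0.148), with 3 NASH-CH rats below every NASH rat. Without control rat 6 this last difference passed (adjusted p = 0.0471), and without NASH rat 4 it was -0.85 (adjusted p = 0.279). Within groups Eci1 correlated with Hadhb at 0.938 and with Eci2 at 0.018 over the 18 rats. For Eci2, control rat 6 was the lowest control rat, at 227 CPM.

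Etfdh was read at 138 to 178 CPM in control rats (median 156), at 104 to 182 in NASH rats (median 155) and at 90.8 to 180 in NASH-CH rats (median 133). The log2 fold change was -0.07 in NASH (SE 0.142) and -0.26 in NASH-CH (SE 0.147, adjusted p = 0.229). In NASH-CH, 4 rats lay below and 1 above every control rat. Its electrons come from the flavoprotein ETF, and the gene of the ETF beta subunit did pass. Etfb was at 81.3 to 127 CPM in control, 76.8 to 88.6 in NASH and 46.3 to 87.6 in NASH-CH rats, and its log2 fold change was -0.62 in NASH-CH (SE 0.133, adjusted p = 0.00421). In NASH it was -0.38 (adjusted p = 0.102), and it passed there in 5 of 31 alternative fits. The NASH-CH call of Etfb held in all 31 alternative fits. The alpha subunit gene Etfa was at -0.19 (adjusted p = 0.289) and -0.23 (adjusted p = 0.151).

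**Figure D3:**
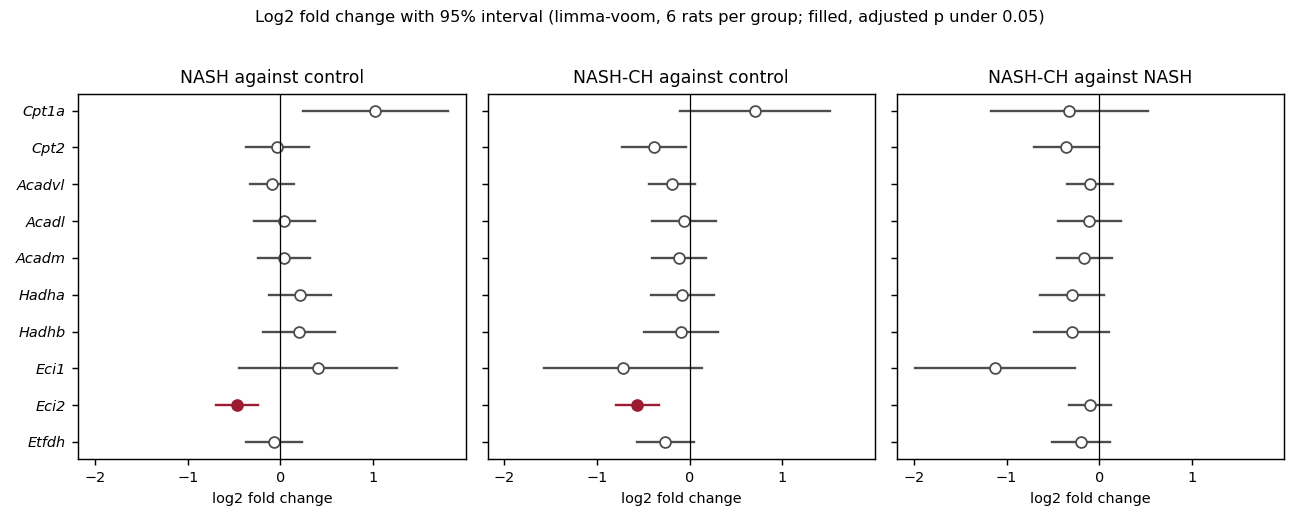
Log2 fold change of the 10 genes in the 3 comparisons with 95% intervals, from fits of 18 rats; filled red points have an adjusted p under 0.05. The interval of Eci2 lies below 0 in both comparisons with control, those of Cpt1a and Eci1 are the widest, and between the models all 10 points lie below 0.

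Over the 10 genes as a list, log2 fold changes were negative for 4 in NASH, for 9 in NASH-CH and for 10 between the models, as they were for 49.0%, 48.5% and 48.7% of all genes tested. With libraries scaled by their totals alone, the first 2 counts were 1 and 4 and the third stayed at 10. The median over the 10 genes was 0.04, -0.15 and -0.24 on the log2 scale, and over all genes it was 0.01 in each of the 3 comparisons. Without NASH-CH rat 5 the last 2 medians were -0.054 and -0.082, and 6 of the 10 genes were negative in NASH-CH. In NASH the median ran from -0.0094 (without control rat 3) to 0.11 (without NASH rat 2) over the 18 fits without 1 rat. The mean log2 CPM over the 10 genes was 6.96 ± 0.28 in control (SD, n = 6), 7.08 ± 0.23 in NASH and 6.76 ± 0.33 in NASH-CH rats.

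Individual rats stood apart in most of the 10 genes at once. NASH-CH rat 5 was the lowest of its group for 10 of 10 genes, against 26.9% of all genes tested. It was also the lowest for 14 of 15 peroxisomal genes, 13 of 17 regulators and 4 of 5 ketogenesis genes, from the lists described below. The same held for 15 of 23 other genes at or next to mitochondrial beta-oxidation and 7 of 13 activation and carnitine shuttle genes. It held too for 10 of 22 mitochondrial housekeeping genes and 9 of 14 hepatocyte markers. Its values were between 0.28 (Cpt1a) and 0.74 (Eci2) times the mean of the other 5 NASH-CH rats. Its TMM factor, 1.28, was the highest of the 18 rats, beside 0.970 to 1.22 in the other NASH-CH rats. Relative to library totals alone, it was not the lowest of its group for Eci2 or Acadl. For Eci2 it had 10357 of 60117806 counts, beside 7596 of 45613593 in NASH-CH rat 2. The part of the scaling in the values of this rat was not tested. NASH rat 2 was the lowest of its group for 8 of 10, against 16.8% of all genes. It was also the lowest for 5 of 5 ketogenesis genes and 11 of 23 other genes at or next to mitochondrial beta-oxidation. In the other lists this held for 2 of 13 activation and carnitine shuttle genes and 2 of 15 peroxisomal genes. It held for 1 of 17 regulators, 1 of 22 housekeeping genes and 0 of 14 hepatocyte markers. Control rat 6 was the highest control rat for 6 of 10, against 19.9% of all genes: its level was 3.53 times the mean of the other 5 controls for Cpt1a, 4.83 times for Eci1, 1.93 times for Hadhb and 1.69 times for Hadha, but 1.01 times for Acadvl and 0.86 times for Eci2. NASH rat 4 was the highest of its group for 6 of 10, against 21.9% of all genes. NASH-CH rat 5 also had the lowest hepatocyte marker sum of the 18 rats (90958 CPM) and the highest cholangiocyte marker sum, 55.8 CPM against 6.89 to 18.3 in the other 17 rats. Alb is the largest part of the hepatocyte sum, and in that rat it was the lowest of its group (41374 CPM). Tf (27043 CPM) and Apoa1 (1264 CPM) were the highest of the group there. Control rat 6 had the lowest hepatocyte marker sum among the controls (131827 CPM), although 6 of the 10 genes were at their highest control value there. The part of cell composition in these values was not tested. Another fit, chosen once these values were known, left out control rat 6 together with NASH-CH rat 5. Cpt1a was then at 1.33 in NASH (adjusted p = 0.00268) and at 1.27 in NASH-CH (adjusted p = 0.00254). Eci2 was then at -0.49 (adjusted p = 0.00524) and -0.53 (adjusted p = 0.00220), and the count of the 10 genes that passed rose to 2 in each comparison with control. The same fit put Hadha, Hadhb, Acadl and Acadm above 0 in NASH-CH, none of which passed.

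**Figure D4:**
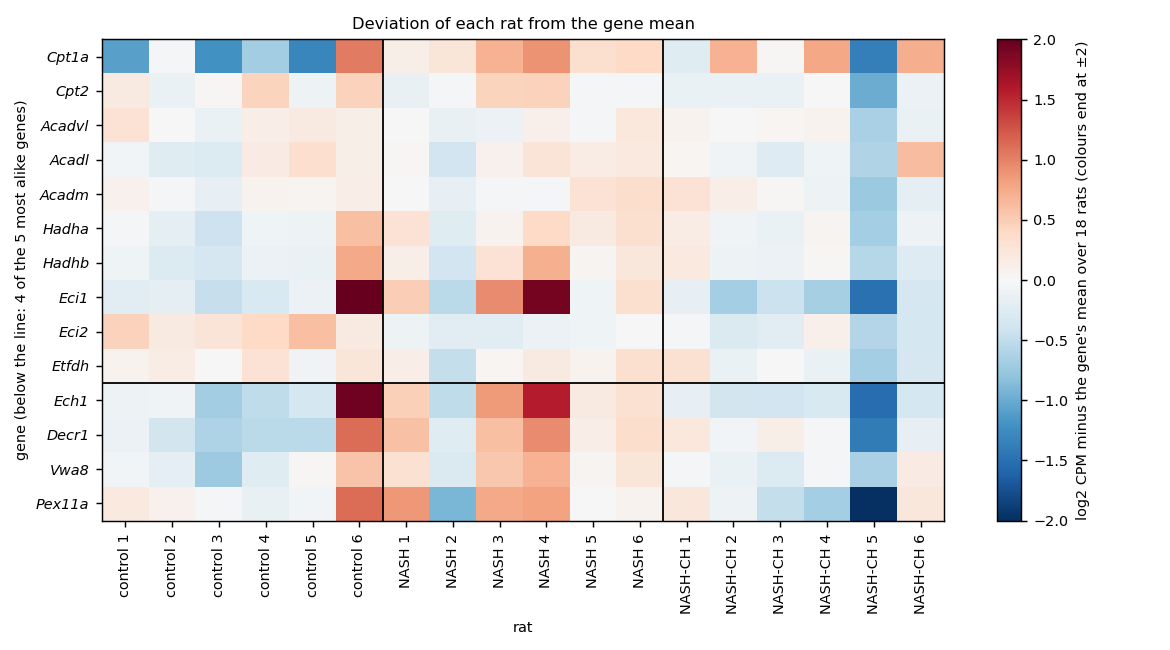
Log2 CPM of each rat minus the mean over 18 rats, for the 10 genes (above the line) and 4 of the 5 genes most like their mean (below it); red is higher and blue lower, with colours ending at 2. The column of NASH-CH rat 5 is blue throughout, and those of control rat 6 and NASH rat 4 are darkest red at Eci1 and Ech1.

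Among the 5 genes outside the list whose log2 CPM followed the mean of the 10 most closely over the 18 rats were Ech1 (Pearson r 0.924), Decr1 (0.917), Vwa8 (0.871) and Pex11a (0.870). They are given as a description, and the points share libraries and scaling. Ech1 and Decr1 encode further enzymes for unsaturated fatty acids. In control rat 6, Ech1 stood at 229 CPM and Decr1 at 226 CPM, the highest values of both among the 18 rats. Neither passed in any of the 3 comparisons.

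Over 6 lists of genes around the pathway, 2 of 95 tested genes passed in NASH (2.11%, beside 3.12% of all genes), 15 in NASH-CH (15.8%, beside 17.0%) and 1 between the models (1.05%, beside 4.20%). None of these pooled shares was above that of all genes, which need not hold for each list. In NASH-CH the calls were most numerous among regulators (6 of 17) and mitochondrial housekeeping genes (5 of 22). Of the 15 in NASH-CH, 12 were lower and 3 higher. Of 13 tested genes of fatty acid activation and the carnitine shuttle, 0 passed by limma-voom in any of the 3 comparisons, with 3, 2 and 4 genes at an unadjusted p under 0.05. The edgeR test also called 0 of them, and DESeq2 called 2 in NASH, 1 in NASH-CH and 1 between the models. A further list held 23 other genes at or next to mitochondrial beta-oxidation. Those next to it included Acad8, Acadsb, Pcca, Pccb, Mmut, Mcee, Nudt7 and Nudt19. Of the 23, 0 passed in NASH by limma-voom (2 at an unadjusted p under 0.05, 0 called by edgeR and 1 by DESeq2). In NASH-CH 2 were lower: Etfb, and Acaa2, a thiolase of the last step of the round. Acaa2 ran from 217 to 507 CPM in control, from 348 to 603 in NASH and from 168 to 374 in NASH-CH rats. Its log2 fold change was -0.74 in NASH-CH against control (adjusted p = 0.0281) and -0.86 against NASH (adjusted p = 0.0341). In NASH it was 0.12 (adjusted p = 0.797). Those 2 calls held in 24 and 21 of 31 alternative fits, and both were lost without NASH-CH rat 4 or 5 and with scaling by totals alone. The first was also lost without control rat 1 or 4, and the second without NASH rat 1, 3, 4, 5 or 6 or NASH-CH rat 1. Of 5 ketogenesis genes, 1 was lower in NASH-CH, Slc16a1, a monocarboxylate transporter (-0.65, adjusted p = 0.00692). Of 15 peroxisomal genes, 1 was lower in NASH-CH, Pecr, a peroxisomal enoyl-CoA reductase (-0.52, adjusted p = 0.00885). The calls of Slc16a1 and Pecr were lost only with scaling by totals.

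Among 17 regulators, 1 passed in NASH, upwards, and 6 passed in NASH-CH, of which 3 were higher and 3 lower. The shares over all genes tested were 3.12% in NASH and 17.0% in NASH-CH. Ppara, which encodes PPAR alpha, ran from 14.0 to 32.5 CPM in control, from 28.2 to 48.3 in NASH and from 19.3 to 49.6 in NASH-CH rats, and NASH-CH rat 5 had the lowest value of its group. It was higher by 0.91 in NASH (SE 0.219, adjusted p = 0.0308) and by 0.88 in NASH-CH (SE 0.226, adjusted p = 0.0132). The NASH-CH call held in all 31 alternative fits, and the NASH call was lost in 9 of the 18 fits without 1 rat (control rat 1, 3, 4 or 5 or NASH rat 1 to 5). Over the alternative fits its log2 fold change in NASH ran from 0.81 to 1.14. Pparg (0.81, adjusted p = 0.0432) and Ncor1 (0.25, adjusted p = 0.0415), a corepressor, were also higher in NASH-CH. Fgf21 (-1.69, adjusted p = 0.0418) and Angptl4 (-1.46, adjusted p = 0.0352), and the receptor gene Esrra (-0.47, adjusted p = 0.0102), were lower. Fgf21 ran from 5.87 to 56.9 CPM among control rats, and its call held in 16 of 31 alternative fits. The losses included scaling by totals, only the 2 groups, quality weights, thinned NASH-CH counts and 9 of the 18 fits without 1 rat (control rat 1, 2, 3 or 6, NASH rat 2 or 5, or NASH-CH rat 1, 2 or 5). Angptl4 lost its call in 6 of them (control rat 1, 3 or 5, or NASH-CH rat 2, 5 or 6), and Pparg and Ncor1 in 8 and 10. Over all 31 fits the calls of Angptl4, Pparg and Ncor1 held in 22, 21 and 18. Over the alternative fits Fgf21 ran from -2.03 to -1.32 and Angptl4 from -1.70 to -1.18. The call of Esrra was lost only with scaling by totals. Ppargc1a, a coactivator of oxidative genes, was at 0.22 in NASH and 0.96 in NASH-CH (adjusted p = 0.146).

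Of 22 housekeeping genes of mitochondria, 1 was lower in NASH (Phb, in 8 of 18 fits without 1 rat), and in NASH-CH 5 were lower and 0 higher. Lower calls made up 1.54% of all genes tested in NASH and 8.60% in NASH-CH. The 5 were Polrmt (-0.37), Tomm70 (-0.32), Phb (-0.29), Tfam (-0.27) and Slc25a3 (-0.26). With scaling by totals alone all 5 lost the call and Slc25a3 was at 0.00 on the log2 scale, so their direction relative to the library total is not settled. All 5 also lost the call with only the 2 groups compared, and each lost it in 3 to 6 of the 18 fits without 1 rat. Over the 31 alternative fits the calls held in 20 (Polrmt), 22 (Tomm70), 22 (Phb), 24 (Tfam) and 25 (Slc25a3). The median over the 22 genes in NASH-CH was -0.16, beside -0.15 for the 10 beta-oxidation genes and 0.01 for all genes tested. Without NASH-CH rat 5 it was -0.11 for the 22 genes and -0.054 for the 10, and the medians of the activation list (0.10) and of the regulators (0.080) were then above 0. In NASH it was -0.09 over the 22 genes, beside 0.04 and 0.01.

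**Figure D5:**
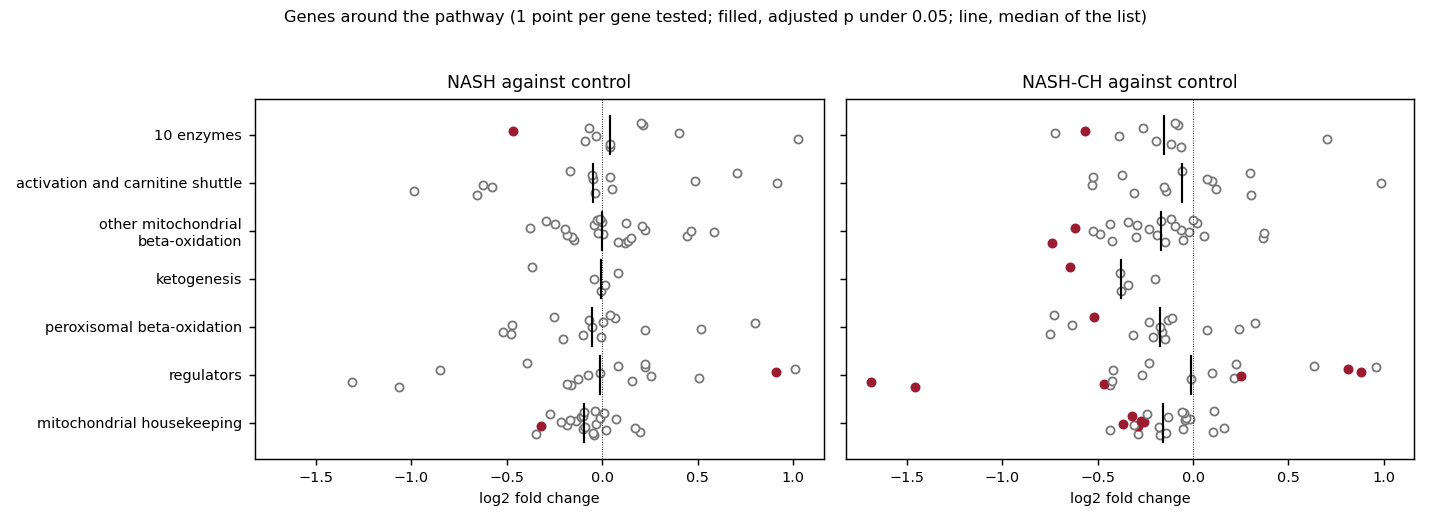
Log2 fold change against control of every tested gene of the 10 enzymes and of 6 lists around them, 1 point per gene; filled points have an adjusted p under 0.05 and the vertical line is the median of the list. In NASH-CH the medians of all 7 lists lie below 0, the filled points of the oxidation and ketogenesis lists all lie below 0, and only the regulators have filled points on both sides.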

How the data were processed

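Liver RNA of 18 Wistar rats, 6 per group by their labels, was measured by RNA sequencing. The authors aligned trimmed reads to Rnor_6.0 with STAR in 2 passes and quantified them with RSEM on Ensembl release 95. The deposited values are RSEM expected counts without normalization, in 1 file for each rat. Tool versions are not given in the sources used here. The labels and the methods name different RNA extraction kits. Expected counts were rounded, scaled by TMM (edgeR 4.0.16), filtered with filterByExpr and tested with limma 3.58.1 (voom) in R 4.3.3, with 1 fit of 18 rats and Benjamini-Hochberg adjustment over 12904 genes at 0.05. Intervals are 95%. CPM and log2 CPM used TMM-scaled totals, with a prior count of 2 for log2 CPM.

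The 10 genes and the lists around them were chosen with earlier results of these data known. All 10 were named in every comparison. Of each list, up to 4 genes past the threshold with the largest change were named, with 9 named whatever their result (Cpt1b, Ppara, Ppargc1a, Slc25a20, Acads, Hadh, Acaa2, Etfa and Etfb). Values of 3 further genes of these and the marker lists are not reported here. The smallest of the 5 housekeeping calls and the regulators beyond the 4 with the largest change were added after their values were seen. Mmut was matched under its older symbol. Rats of a group are separate animals, housed in pairs by cage, and cage was not modelled. Libraries of a group were compared with each other, and all pairs differed by more than sampling noise (chi-square per degree of freedom at least 30.3). The fits were tested on simulated counts. DESeq2 1.42.0, edgeR's quasi-likelihood test, other scalings, filters and weights, a replicate block, thinned counts and leaving out each rat were the alternatives. Promoter windows came from a RefSeq table. Every NASH-CH library was deeper than every other library, so depth cannot be told apart from that model. With NASH-CH counts thinned, Eci2 kept its call in NASH-CH against control, while Fgf21 and Polrmt lost theirs. Precision rests on there being 6 rats per group.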

Additional observations from a re-analysis of the deposited data

Results flagged for a closer look

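In 7 of 30 gene and group combinations, 1 rat lay far from the other 5 of its group by Dixon's ratio, the gap to the nearest rat divided by the range of the group, both on log2 CPM. Each ratio was above the 95% critical value for 6 samples; chance gives about 1 in 20. NASH-CH rat 5 was far below the others for Cpt2 (31.5 CPM, ratio 0.867), Acadvl (98.1 CPM, ratio 0.702) and Hadha (102 CPM, ratio 0.661). NASH rat 2 was far below the others for Acadl (55.1 CPM, ratio 0.626) and Etfdh (104 CPM, ratio 0.649). Control rat 6 was far above the others for Hadhb (174 CPM, ratio 0.766) and Eci1 (212 CPM, ratio 0.860). Genes of the same rat come from 1 library, so the 7 are not independent of each other. With the ratio taken on CPM instead, a scale added after these values were known, 6 combinations were above the critical value, and 4 of them were shared: Cpt2 and Acadvl in NASH-CH rat 5 and Hadhb and Eci1 in control rat 6. The other 2 were Cpt1a (ratio 0.657) and Hadha (ratio 0.689) in control rat 6, while Acadl (0.574) and Etfdh (0.585) in NASH rat 2 and Hadha (0.595) in NASH-CH rat 5 were below it.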

How the results depend on the processing

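Among 930 log2 fold changes of the 10 genes under alternative fits, 887 kept their direction and their side of the threshold. Only Eci2 passed in the main fit, so keeping a side mostly meant not passing again. The fits also share most of their rats, so this count is no measure of how firm the results are. Against control, Cpt1a passed only without control rat 6, without that rat and NASH-CH rat 5, or with sample quality weights. Eci2 in NASH lost its call in 5 fits without 1 rat and with library size only. In NASH-CH against control, Acadvl, Acadl, Acadm, Hadha and Hadhb changed direction under at least 1 alternative. With 6 rats per group, the intervals given above bound the precision of each change.

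With library size only, values of opposite direction were 0.14 (Acadvl), 0.19 (Cpt2) and 0.16 (Etfdh) in NASH, and 0.062 (Acadvl), 0.19 (Acadl), 0.14 (Acadm), 0.17 (Hadha), 0.15 (Hadhb) and 0.00107 (Slc25a3) in NASH-CH against control. That scaling put the median of all genes at 0.229 and 0.268, from 0.01 in both; it called 865 genes in NASH, 785 higher and 80 lower, against 204 and 199 with TMM, and 0 members. Sample quality weights put Acadm at 0.021, Hadha at 0.063 and Hadhb at 0.050 in NASH-CH, with 2 members called in each comparison with control and 1509 genes in NASH. With control rat 6 and NASH-CH rat 5 both left out, Cpt2 was at 0.039 in NASH and Acadl at 0.057, Acadm at 0.025, Hadha at 0.14 and Hadhb at 0.14 in NASH-CH, again with 2 members called in each, and 1413 genes in NASH.

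Counts of all genes called in NASH (main 403) were 652 with edgeR, 1228 with DESeq2, 268 with no filter and 644 with only the 2 groups compared. In NASH-CH against control (main 2192) they were 5495 with no filter and 1408 with only the 2 groups. Between the models (main 542) they were 949 with DESeq2, 2649 with no filter, 349 with only the 2 groups and 270 without small non-coding RNA genes. The cause of these differences was not tested.

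Leaving out each rat in turn gave 128 to 982 genes in NASH, 1519 to 2409 in NASH-CH and 346 to 591 between the models, with 0 to 2, 1 to 2 and 0 to 1 members called. The highest counts in the comparisons with control, and the highest member counts, came without control rat 6; the lowest count in NASH came without control rat 3. Values that changed direction ran in NASH from -0.10 to 0.030 for Cpt2, -0.018 to 0.13 for Acadl, -0.011 to 0.091 for Acadm and -0.12 to 0.038 for Etfdh. In NASH-CH they ran from -0.19 to 0.036 for Acadl, -0.19 to 0.00222 for Acadm, -0.17 to 0.039 for Hadha and -0.17 to 0.056 for Hadhb.

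Rats of different groups share the numbers 1 to 6. Deviations of same-numbered rats from their group means were weakly correlated (mean correlation 0.0516, 0.0732 and 0.0154, with 2, 1 and 0 of 6 pairs above 0.1). In NASH-CH against control the 6 pairs ran from 0.0272 to 0.124, all above 0. Differently numbered pairs were not compared. The fit with a replicate block called 444, 2095 and 540 genes and again Eci2 alone in both comparisons with control, with 0 members between the models. Among the named genes of the lists, Phb did not pass with the block in NASH (adjusted p = 0.0657), nor did Pparg (0.0549), Fgf21 (0.0537), Ncor1 (0.0761), Tfam (0.0574), Polrmt (0.0526) and Phb (0.0506) in NASH-CH.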
